A study of Mus musculus with 4 samples.

Results

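CpG islands lying within 1000 bp of an annotated pseudogene numbered 419 among the 16151 islands that could be tested, a share of 2.59%. They were chosen by position, CpG density and the presence of values, and not by their methylation level. An island was a merged stretch of overlapping runs of 30 listed CpGs, each run spanning under 500 bp. It had to lie on an autosome and to hold at least 10 CpGs with a value in all 4 samples, and 8 of 427 islands near a pseudogene missed that minimum. A gene counted as a pseudogene where its biotype in the RefSeq table for GRCm38.p6, the same build as mm10, contained that word. The 419 islands lay at 399 of the 9401 autosomal pseudogenes. Of them, 341 overlapped the pseudogene and 78 lay only beside it, and 33 shared their pseudogene with another island of the set. A protein-coding gene also lay within 1000 bp of 158 islands, so these cannot be assigned to the pseudogene alone, while 261 had no coding gene that near.

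DNA methylation had been measured by whole-genome bisulfite sequencing with post-bisulfite adaptor tagging, in germ cells of testes from mice aged 21 days. Both control samples came from Np95fl/fl mice, whose Np95 alleles are flanked by Cre recognition sites but intact. Both knockout samples came from Np95fl/fl:Stra8-Cre mice, which carry the same floxed alleles and a Cre recombinase driven by Stra8, a gene switched on in male germ cells before meiosis. A group with Cre and intact Np95 alleles was not analysed here. The cells were a mixture of the stages present at that age, and somatic cells were removed only by picking tubules and by a 95 µm mesh. Whether replicates came from different animals is not labelled, so p-values reflect only how these samples vary, which may be technical. The deposited table gives a percentage per cytosine without read depth, so no counting error can be given for a level. Between 28863300 and 29616095 autosomal cytosines had a value in each sample.

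Np95, also called Uhrf1, binds hemimethylated CpGs behind the replication fork and brings the maintenance methyltransferase Dnmt1 to them, so that the new strand receives the pattern of the old one. CpG islands are stretches rich in CpG that mostly stay unmethylated, many of them at promoters of genes active in many tissues. Pseudogenes are gene copies that have lost their coding function. Processed pseudogenes arose from messenger RNA copied back into the genome, so that they carry the exons of a parent gene without its promoter or introns. CpG-rich exons can therefore form an island at a place that was never a promoter.

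A processed copy lacks its parent's promoter, but whether the copies named here are processed was not examined. Printed first are the 250 bases before the start of 3 parent genes, Impdh2, Rps2 and Trmt112, whose pseudogenes Impdh2-ps, Rps2-ps7 and Trmt112-ps2 carried islands that gained methylation in the knockouts. Impdh2 makes an enzyme of guanine nucleotide synthesis, Rps2 a protein of the small ribosomal subunit, and Trmt112 an activating partner of several methyltransferases. The last pair are promoters that themselves lay inside an island of the set, those of Ccdc194 beside the pseudogene Gm7850 and of Zar1, a gene of egg cells, beside Slc10a4l. Sequences are from RefSeq for GRCm38.p6, given 5′ to 3′ on the strand of the gene, with CpGs in capitals. The island bases themselves were not read, since no genome was used.
Impdh2: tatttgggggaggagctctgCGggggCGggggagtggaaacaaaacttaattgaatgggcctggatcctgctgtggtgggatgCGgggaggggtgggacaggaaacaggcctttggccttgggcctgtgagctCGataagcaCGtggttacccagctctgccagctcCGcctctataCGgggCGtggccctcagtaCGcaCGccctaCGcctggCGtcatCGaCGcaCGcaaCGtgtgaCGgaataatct
Rps2: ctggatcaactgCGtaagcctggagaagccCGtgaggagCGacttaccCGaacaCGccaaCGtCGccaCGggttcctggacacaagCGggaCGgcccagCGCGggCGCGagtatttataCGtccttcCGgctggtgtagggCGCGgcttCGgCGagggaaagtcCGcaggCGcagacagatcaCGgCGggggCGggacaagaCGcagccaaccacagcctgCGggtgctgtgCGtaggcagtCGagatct
Trmt112: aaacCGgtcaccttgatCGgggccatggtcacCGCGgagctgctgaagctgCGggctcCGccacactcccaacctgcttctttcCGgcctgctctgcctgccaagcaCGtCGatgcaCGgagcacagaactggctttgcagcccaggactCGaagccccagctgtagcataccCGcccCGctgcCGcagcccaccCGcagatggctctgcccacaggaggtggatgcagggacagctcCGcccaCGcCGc
Ccdc194: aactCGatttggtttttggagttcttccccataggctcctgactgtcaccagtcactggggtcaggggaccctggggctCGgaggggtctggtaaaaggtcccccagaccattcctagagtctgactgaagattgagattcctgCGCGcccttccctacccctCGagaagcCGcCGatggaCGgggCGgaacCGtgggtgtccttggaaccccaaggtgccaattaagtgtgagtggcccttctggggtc
Zar1: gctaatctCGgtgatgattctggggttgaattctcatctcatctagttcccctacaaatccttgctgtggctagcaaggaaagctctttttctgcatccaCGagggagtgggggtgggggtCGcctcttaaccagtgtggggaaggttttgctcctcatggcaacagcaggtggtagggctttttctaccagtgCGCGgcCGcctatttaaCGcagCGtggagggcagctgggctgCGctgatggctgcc

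These promoters lie at chr9:108560186-108560435 on the plus strand for Impdh2, chr17:24719813-24720062 on the plus strand for Rps2 and chr19:6909448-6909697 on the plus strand for Trmt112. The window of Ccdc194 is chr8:71525726-71525975 and that of Zar1 is chr5:72581085-72581334, both on the minus strand. The 250 bases hold 17 CpGs at Impdh2, 29 at Rps2, 18 at Trmt112, 10 at Ccdc194 and 9 at Zar1. All 3 parent promoters were almost unmethylated in every sample. Over 27 measured cytosines the Impdh2 window was at 0.83% and 1.73% in the controls against 1.87% and 2.44% in the knockouts. The Rps2 window was at 0.48% and 0.95% in the controls against 0.50% and 1.28% in the knockouts over 58 cytosines. For Trmt112 the values were 0.97% and 0.25% against 1.49% and 0.95%, over 36 cytosines. Inside the islands of the set lay 72 such promoter windows of coding and other genes, in 60 islands, and 71 of the windows had at least 10 measured cytosines. Of these, 69 were under 5% in all 4 samples. The exceptions were Ccdc194, at 1.14% and 2.61% in controls against 9.26% and 2.89% in knockouts, and Zar1, at 3.60% and 1.33% against 8.62% and 2.91%. In each it was knockout replicate 1 that stood above 5%.

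The islands next to pseudogenes fell into 3 classes by their level in the controls, so part of any change within a class may come from that choice. Under 20% methylation lay 368 islands, from 20% to under 80% lay 25, and at 80% or more lay 26. Lowly methylated islands were more often higher than lower in the knockouts, and highly methylated ones were lower. For means over sets of islands, gain and loss stand for differences that 2 samples a group cannot carry past a test. Over all 419 the mean level was 11.2% and 10.998% in the controls against 11.4% and 9.89% in the knockouts, a difference of -0.42 points, and the mean hid these opposite movements. Without knockout replicate 1 it was -1.19 points, and its sign turned without knockout replicate 2, to 0.344 points. The other 15576 autosomal islands averaged 6.52% and 6.61% in the controls against 5.21% and 5.01% in the knockouts. Levels were compared island by island with limma, in 1 fit over all 16151 islands, and islands named as called have a p below 0.05 after Benjamini-Hochberg adjustment and a change of 10 percentage points or more. Of the 419 islands 32 were called lower (7.64%), beside 5.82% of all islands, and 12 were called higher (2.86%), beside 0.310% of all islands. The 12 made up 24.0% of the 50 islands called higher anywhere, and the 32 made up 3.40% of the 940 called lower. Both knockouts lay above both controls in 153 of the 419 (36.5%), beside 19.6% of all islands, and below both controls in 81 (19.3%), beside 25.1%.

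**Figure D1:**
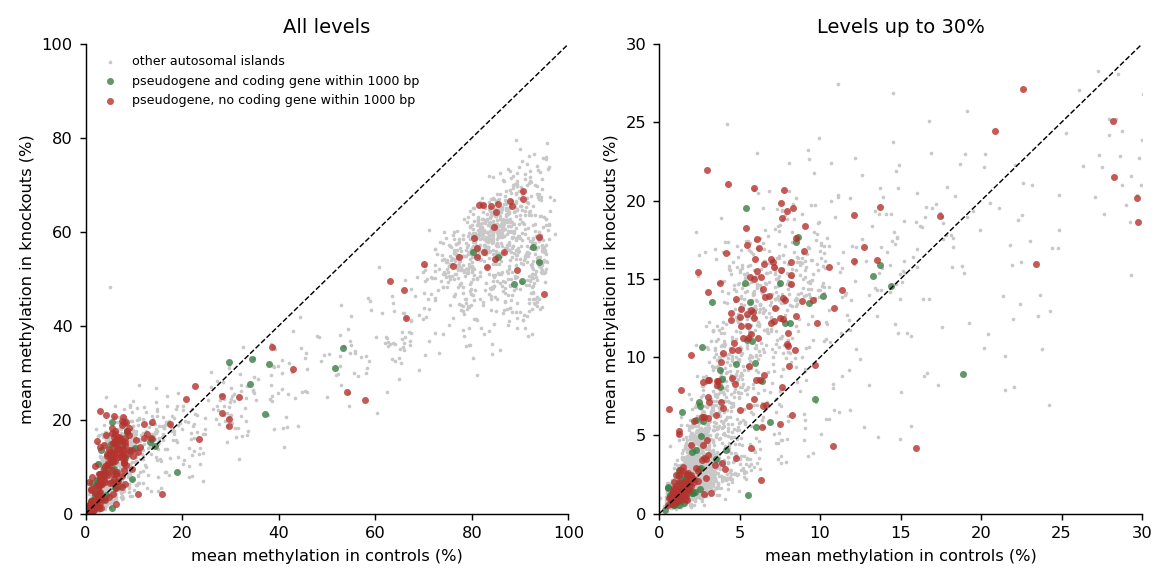
Mean methylation of each island in the controls (horizontal axis, percent) and in the knockouts (vertical axis, percent), with all levels on the left and levels up to 30% on the right. Each point is 1 island, coloured by whether a pseudogene and a coding gene lie within 1000 bp; below the dashed line of equality lie all 26 pseudogene islands at 80% or more, and above it lie 264 of the 368 under 20%.

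Methylation rose past the test's threshold in 12 islands, all from under 10% in both controls to between 8.07% and 25.1% in the knockouts. The largest gain was at Gm9755, whose island (chr8:67515232-67515657) lies wholly inside the pseudogene. It stood at 4.40% and 1.54% in the controls against 18.9% and 25.1% in the knockouts over 28 CpGs (difference 19.0 points, adjusted p = 0.00313 by limma). The next was at Gm13445 (chr2:35491083-35491720), at 4.63% and 3.89% against 23.8% and 18.3% over 35 CpGs (16.8 points, adjusted p = 0.00326 by limma). In these islands the groups were far apart, with the lowest knockout value more than 10 points above the highest control value. At Gm8203 (chr6:116173630-116174094), inside the coding gene Tmcc1, the levels were 6.47% and 4.32% in controls against 21.9% and 17.2% in knockouts (14.1 points, adjusted p = 0.0118 by limma). Gm9824 (chr10:29030084-29030591) went from 9.22% and 2.55% to 19.5% and 22.1%, but only 13 of its 31 CpGs were measured in all samples (14.9 points, adjusted p = 0.0446 by limma).

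Copies of known genes were among the 12. The island at Impdh2-ps (chr8:100030498-100031003) was at 3.10% and 1.79% in the controls against 22.8% and 8.07% in the knockouts (13.0 points, adjusted p = 0.0268 by limma). Its knockout values were far apart, with replicate 1 the higher. Among ribosomal protein copies, Rps2-ps7 (chr16:18681720-18682500) had 6.78% and 8.40% in controls against 20.3% and 19.4% in knockouts (12.3 points, adjusted p = 0.0319 by limma). Rps4l-ps (chr7:114926925-114927829), with 59 CpGs the most measured of the 12, had 5.97% and 4.98% against 21.5% and 12.9% (11.7 points, adjusted p = 0.0404 by limma). Rps2-ps7 had nearly equal knockout values, whereas those of Rps4l-ps differed by more than 8 points. The remaining named models were Gm9008 (chr6:76497642-76498306), Gm8762 (chr1:136789097-136789700) and Gm18934 (chr9:11277647-11278116). Their controls ranged from 2.46% to 7.85% and their knockouts from 12.9% to 23.7%. Gm6054 (2.94% and 3.18% against 17.2% and 11.1%) and Trmt112-ps2 inside Rbp7 (3.99% and 2.59% against 12.8% and 14.2%) had the smallest gains of the 12 and are named after their values were seen.

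**Figure D2:**
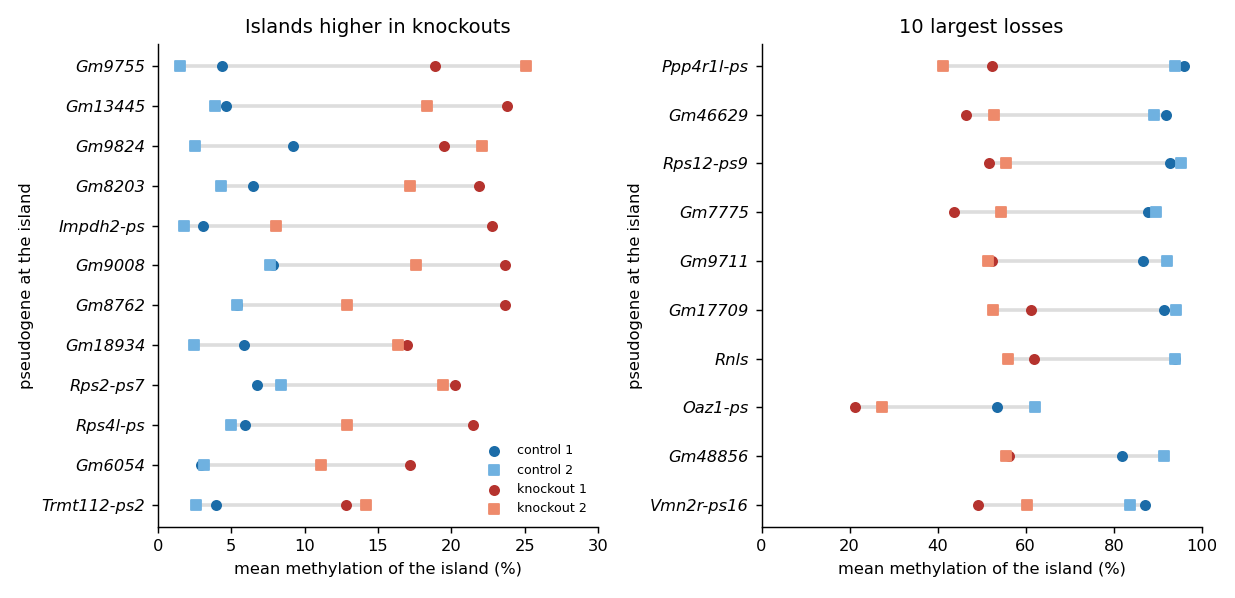
Mean methylation of single islands (horizontal axis, percent) in each of the 4 samples, named by the pseudogene at the island, with the 12 islands called higher on the left and the 10 largest losses among those called lower on the right. Points are samples, blue for controls and red for knockouts, and the grey bar spans them; in every island shown both knockouts lie on the same side of both controls.

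Within these 12 islands the gain was spread over their CpGs. In sum 313 of 408 measured CpGs had both knockouts above both controls, and 1 CpG had both below. Per island that share ran from 66.7% to 88.9%, with a median of 77.9%. The CpGs of an island share reads, so they are not replicates. The islands were called on the mean of these same CpGs, so a high share follows in part from that choice. No share from other islands was set beside it. The 12 calls rest on the variance that limma shares between islands: with each island's own spread, 0 were called and their adjusted p ran from 0.249 to 0.542. With that spread 71 of the 419 had an unadjusted p under 0.05, in either direction, beside 2048 of all 16151 islands. Left without knockout replicate 1, 2 islands of the set were called higher, and without control replicate 2, 3 were. Gm13445 was called in all 10 other settings in which these islands were followed one by one, and none of the other 11 was. Islands built from longer runs of CpGs were not among these 10 settings, and with them 0 islands of the set were called higher.

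Lowly methylated islands as a whole showed the gain most at pseudogenes without a coding gene nearby. Those 223 islands averaged 4.42% and 3.91% in the controls against 8.50% and 6.17% in the knockouts. Their mean was 4.17% ± 0.358 in controls against 7.34% ± 1.65 in knockouts (SD, n = 2 each). Of the 223, 10 were called higher (4.48%) and 0 lower, and 111 had both knockouts above both controls (49.8%). The 145 islands with a coding gene nearby as well differed less, going from 2.64% and 2.33% to 3.86% and 3.08%. Of the 145, 2 were called higher (1.38%) and 41 had both knockouts above both controls (28.3%). Knockout replicate 1 was the higher of the knockouts in both groups. A still smaller difference was found in the 13464 lowly methylated islands near a coding gene and no pseudogene, at 1.56% and 1.55% in controls against 1.92% and 1.71% in knockouts. Of those, 32 were called higher (0.238%) and 20.2% had both knockouts above both controls. Of 1080 lowly methylated islands with neither a pseudogene nor a coding gene nearby, 25.3% had both knockouts above both controls. Their levels were 1.73% and 1.77% against 2.35% and 2.05%, and 6 of them were called higher (0.556%).

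The difference between these sets depended on where the islands started. The gap between the 223 pseudogene islands and the 1080 islands with neither gene widened from 2.69 and 2.15 points in the controls to 6.15 and 4.12 points in the knockouts, by 2.72 points (exact two-sided permutation p = 0.333, the smallest that 2 against 2 samples allow). Without knockout replicate 1 it widened by 1.70 points. When the 1080 were weighted to the control levels of the 223, an alternative added after the data were seen, the widening was 0.804 points. The pseudogene islands had more often a control level of 5% to 10%, where 73 of them lay against 38 of the 1080. At that level the gains were alike in size, 5.94 points at pseudogenes, 6.0 points without either gene and 5.30 points at 378 islands near coding genes. Both knockouts lay above both controls in 64.4%, 63.2% and 72.0% of these sets in the same order. Called higher were 5 of the 73, 5 of the 38 and 14 of the 378. At 2% to 5% the gains differed. There 50 pseudogene islands went from 3.69% and 3.06% to 8.74% and 6.40%, a gain of 4.20 points, against 0.96 points in 138 islands without either gene and 1.40 points in 909 near coding genes. Of the 50, 33 had both knockouts above both controls (66.0%), beside 29.0% of the 138 and 39.3% of the 909. Called higher were 5 of the 50, 1 of the 138 and 18 of the 909. Below 2%, where 89 of the 223 lay, no set gained as much as 1 point. At 10% to under 20% the order was the other way, with 1.61 points in 11 pseudogene islands against 3.11 points in 13 islands without either gene and 1.62 points in 133 near coding genes.

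**Figure D3:**
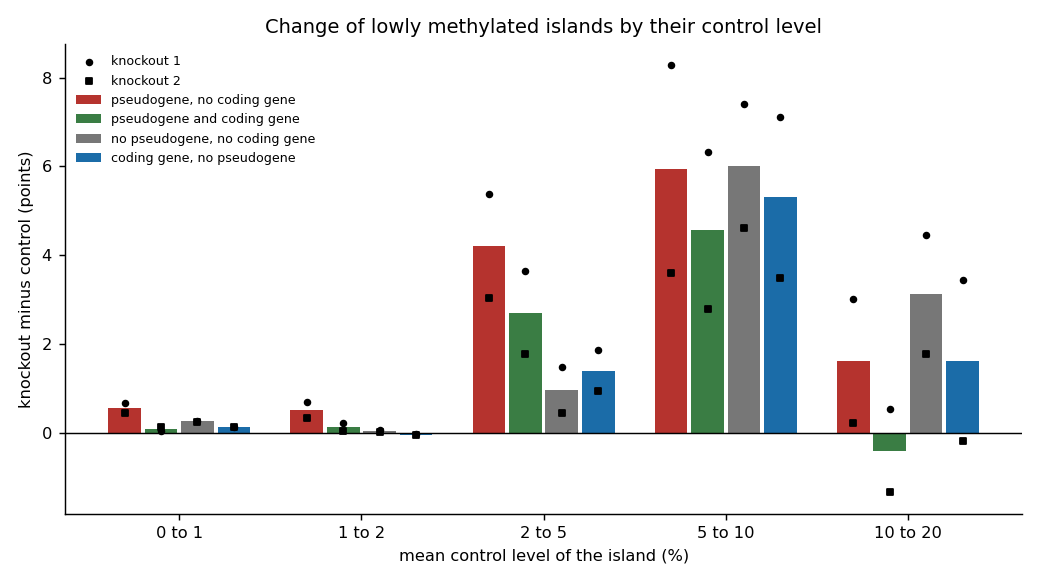
Mean knockout minus control difference (vertical axis, percentage points) of islands under 20%, by their mean control level (horizontal axis, percent) and by the genes within 1000 bp. Bars are means over islands against the mean of both controls, and points give each knockout sample against the same control mean; in the bin from 2 to 5% the bar of pseudogene islands without a coding gene stands at 4.20 points and that of islands without either gene at 0.96.

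Short pseudogenes carried the larger gains. Among the 223 islands, the 54 at pseudogenes of up to 1000 bp went from 5.36% and 4.84% to 12.0% and 8.10%. Both knockouts lay above both controls in 36 of the 54 (66.7%), and 5 were called higher. Over all 223 islands, 111 had both knockouts above both controls (49.8%) and 10 were called higher (4.48%). The 64 at pseudogenes of 1000 to 2000 bp went from a mean of 4.27% to 8.05%. At 2000 to 5000 bp, 57 islands went from 4.14% to 6.69%, and the 48 at still longer pseudogenes went from 3.0% to 4.11% with 0 called higher. Control levels were lower in the same order, so length and starting level cannot be told apart here, and the trend itself was not tested. All 12 islands called higher overlapped their pseudogene, 3.99% of the 301 lowly methylated ones that did, beside 0.310% of all islands. The 67 lowly methylated ones that lay only beside it held 0. These 67 also started lower, at a control mean of 1.66% against 3.91%. Overlap and starting level cannot be told apart here, and the split was not tested.

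Reads from near-identical copies can be placed at the wrong one, and the aligner is not given in the sources used here, so values of pseudogenes may be uncertain. The gain was of like size whatever share of an island's CpGs had values. Among the 223, the 48 with up to 80% of their listed CpGs measured gained 2.74 points, the 46 with 80% to 95% gained 3.23 points and the 129 with more gained 3.31 points. The wrong placement of reads was not tested.

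Islands matched to parent genes did not follow those of their pseudogenes. Of 84 islands at pseudogenes whose symbol is a parent's name with -ps, the parent symbol was not matched to the gene table for 39 and had no island for 2, which left 43 pairs. The parent's island was the one with most CpGs within 1000 bp of the parent gene. Whether it belonged to another gene was not checked. In 38 pairs the pseudogene island was under 20% in the controls. These islands averaged 5.18% and 4.38% in the controls against 10.9% and 7.56% in the knockouts, and 23 of the 38 had both knockouts above both controls. Their 29 parent islands averaged 1.53% and 1.59% against 1.23% and 1.30%, with 5 above both controls, and none exceeded 4.87% in controls or 2.56% in knockouts as a group mean. The gap between a pseudogene and its parent widened from 3.42 and 2.50 points to 9.62 and 6.16 points, by 4.93 points (exact two-sided permutation p = 0.333), and without knockout replicate 1 by 3.20 points. The pseudogene's difference exceeded that of its parent in 32 of the 38 pairs, and its control level was the higher one in 32 as well. A gain of 5 points or more was seen in 15 pseudogene islands and in 0 parent islands. The parent islands started lower on average, so being a copy and starting level cannot be told apart here.

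The pairs of the called islands are given as single examples. The island matched to Impdh2 (chr9:108566464-108568067) lies outside and downstream of the promoter window printed above. It stood at 0.89% and 0.81% in controls against 0.93% and 0.85% in knockouts. Whether this island belongs to Impdh2 or to another gene was not checked. The island of Rps2 (chr17:24719359-24720841), which contains the printed promoter, was at 2.22% and 3.60% against 1.75% and 1.90%. That of Trmt112 (chr19:6909209-6910871), which also contains its promoter, was at 1.56% and 1.18% against 1.19% and 1.07%. None of these parent islands moved by 5 points, while their copies rose by 10.2 to 13.0 points. These copies were picked because they were called higher, which takes 10 points or more. The contrast in size therefore follows from that choice. Another copy of Rps2, Rps2-ps8, started higher, at 11.02% and 8.36%, and ended at 12.0% and 6.98%, so not every copy of a parent gained.

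**Figure D4:**
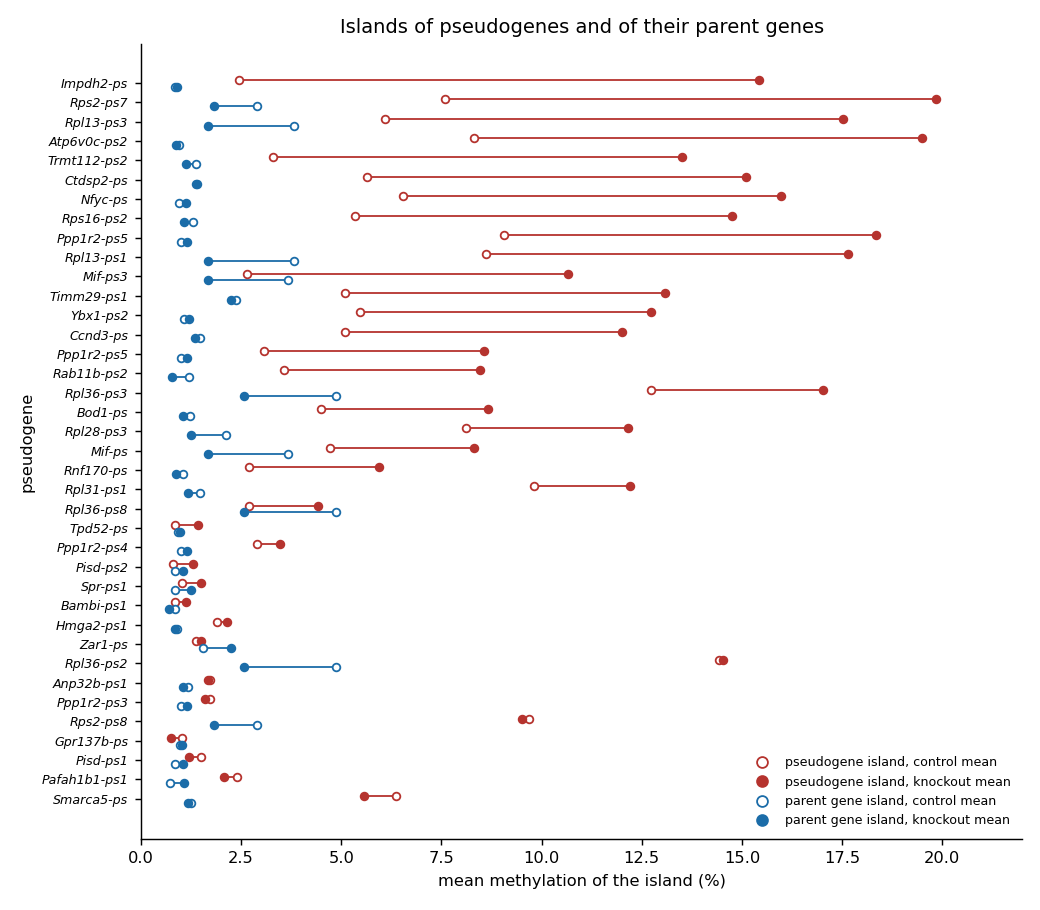
Mean methylation (horizontal axis, percent) of 38 islands at pseudogenes (red) and of the islands matched to their parent genes (blue). Open circles give the mean of both controls and filled circles the mean of both knockouts. Rows are ordered by the difference at the pseudogene; all filled blue points lie at or below 2.56%, while 15 red lines span 5 points or more.

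Among the 8 paired copies with most CpGs measured, most hardly changed. Smarca5-ps, named after a chromatin remodelling ATPase, has the longest of these islands, with 109 CpGs, and was at 8.03% and 4.71% in controls against 6.27% and 4.86% in knockouts. Zar1-ps, Pisd-ps2, Gpr137b-ps, Pisd-ps1, Bambi-ps1 and Ppp1r2-ps3 were at most 2.33% in every sample. Timm29-ps1, named after a subunit of a mitochondrial protein importer, had 4.03% and 6.15% in controls against 16.5% and 9.62% in knockouts (7.99 points, not past the threshold, adjusted p = 0.120 by limma). By family, 13 islands lay at ribosomal protein copies. The 11 of these under 20% had the highest starting level, 9.01% and 7.46%, and reached 16.8% and 11.7%. Of them 2 were called higher (18.2%, beside 3.26% of the 368 islands of that class) and 6 were above both controls. Other copies named after a parent numbered 50, with 2 called higher (4.0%) and 7 lower (14.0%). The 283 Gm models, which carry no parent name, had 8 higher (2.83%) and 20 lower (7.07%). That was near the 2.86% and 7.64% of the whole set, while over all islands the shares were 0.310% and 5.82%. Of 16 islands at olfactory or vomeronasal receptor pseudogenes, 15 of them Vmn2r pheromone receptor copies, 2 were called lower (12.5%) and 0 higher. Among 5 at histone copies and 1 at a zinc finger copy no island was called. These last families are too small for their counts to be read. All 12 islands called higher were among the 332 at pseudogenes of the plain biotype (3.61%), and 0 were among the 87 at those annotated as transcribed. The difference between biotypes was not tested.

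The lowly methylated islands with most CpGs measured are given next. The island at Rn18s-rs5 (chr17:39842839-39848823), annotated as a sequence related to the small-subunit ribosomal RNA gene, holds 597 measured CpGs. It was at 5.88% and 5.58% in controls against 4.49% and 3.96% in knockouts. Both knockouts were below both controls, and the change was not past the threshold (adjusted p = 0.615 by limma). As ribosomal RNA genes exist in many near-identical copies, reads at this place may come from others. Gm21321, Gm4895 and Gm46140, with 219 to 232 CpGs each, stayed between 0.817% and 1.72% in all samples. Near Gm46140 lies Msl2, a coding gene, within 1000 bp of the island.

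The gain ended within the island. Around the 223 lowly methylated islands without a coding gene, cytosines at 1 to 500 bp from the island's edge averaged 21.7% in controls against 18.4% in knockouts. At 501 to 1000 bp the means were 52.5% and 31.1%, and at 1001 to 2000 bp they were 72.2% and 38.7%, a retained share of 53.6%. The knockout means were therefore above the controls inside and below them outside. The 12 islands called higher were picked for a rise inside, so the size of that rise follows from the choice. Inside they averaged 5.55% and 4.06% in controls against 20.2% and 16.3% in knockouts. At 1001 to 2000 bp their means were 62.4% in controls and 34.6% in knockouts. The pseudogene's limits often fell within an island. In 138 of the 223 islands with CpGs on both sides of such a limit, the part inside the pseudogene gained 3.38 points and the part outside 3.12 points (difference 0.267 points, exact two-sided permutation p = 0.667). In 75 such islands that also had a coding gene within 1000 bp, the part inside gained 1.11 points and the part outside 0.539 points (difference 0.568 points, p = 0.333 by the same exact test, the smallest it allows). A test of this size cannot show whether the parts differ.

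**Figure D5:**
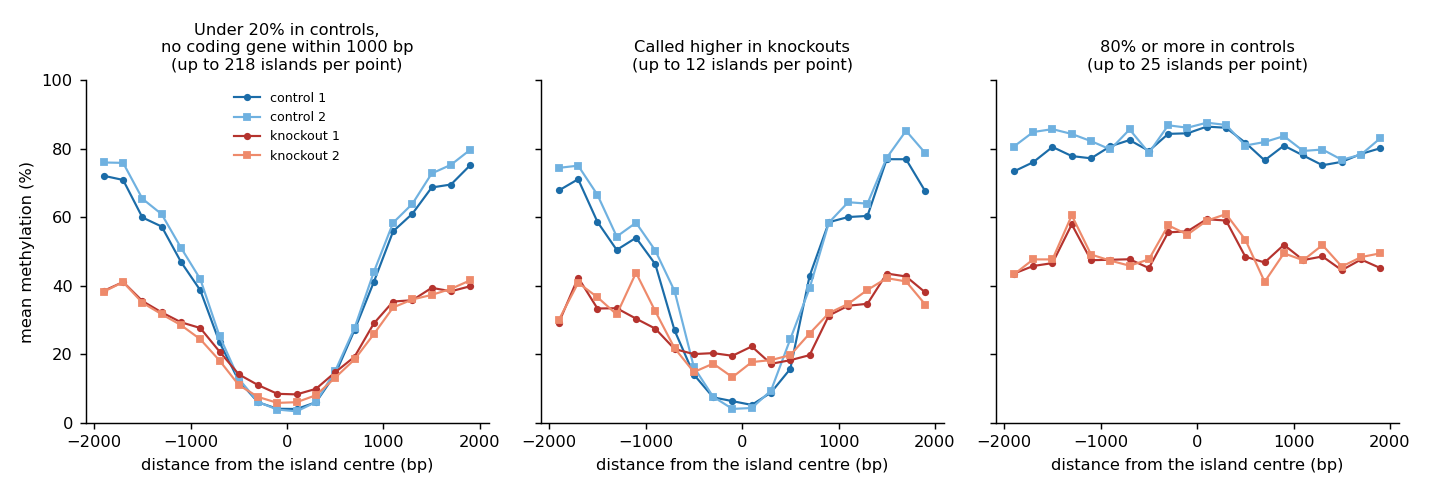
Mean methylation (vertical axis, percent) in steps of 200 bp by distance from the island centre (horizontal axis, bp) for 3 sets of pseudogene islands, with 1 line per sample. In the left and middle panels the knockout lines lie above the control lines at the centre and below them beyond 1000 bp, and in the right panel they lie below throughout.

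All 26 islands at 80% or more in the controls were lower in both knockouts than in both controls, and 25 were called lower. They averaged 86.1% and 87.0% in the controls against 58.4% and 58.6% in the knockouts, or 86.5% ± 0.645 against 58.5% ± 0.111 (SD, n = 2 each). The knockouts retained 67.6% of the control level, with single islands between 49.2% and 80.5%. Outside these islands the retained share was lower than inside, at 59.0% within 500 bp of the island and 58.3% at 1001 to 2000 bp. Of 654 other autosomal islands of this class 649 were called lower, and they averaged 86.6% and 88.2% in controls against 57.8% and 58.2% in knockouts. The gap between the pseudogene islands and these others moved by 1.41 points (exact two-sided permutation p = 0.333). Without control replicate 2 it moved by 0.788 points, and for islands overlapping the pseudogene it moved by -0.24 points, so no difference in loss was established. A coding gene nearby went with a larger loss in either set. The 6 pseudogene islands with one had a median retained share of 59.1% and the 20 without one 72.5%, beside 60.6% in 292 islands near a coding gene alone and 70.8% in 330 with no gene. The split by coding gene was not tested within the set.

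The largest loss was at Ppp4r1l-ps (chr2:173633707-173634259), a pseudogene named after a regulatory subunit of protein phosphatase 4. Its island went from 96.0% and 93.8% to 52.3% and 41.2% over 23 CpGs, a difference of -48.2 points (adjusted p = 0.000101 by limma). It also retained the least, 49.2%. Rps12-ps9 (chr8:123206147-123206779), a ribosomal protein copy, went from 92.7% and 95.2% to 51.7% and 55.5% (-40.4 points, adjusted p = 0.000105 by limma), whereas the island of its parent Rps12 was at 1.24% and 1.15% against 1.08% and 1.10%. In this pair the island at the copy was methylated in the controls and that of the parent was not. The island at the copy also overlaps the coding gene Chmp1a, and 39.3% of it lies in the pseudogene. It cannot be assigned to the copy alone. The other losses among the 10 largest were at Gm46629, Gm7775 in the collagen gene Col18a1, Gm9711, Gm17709 in Banp, Rnls, Oaz1-ps, Gm48856 and Vmn2r-ps16. Their differences ran from -40.9 to -30.7 points. Rnls, the renalase gene, is a transcribed pseudogene in the table used. The call at Vmn2r-ps16, a pheromone receptor copy annotated over 160377 bp, rests on 12 of 49 listed CpGs. Its island also overlaps the coding gene Zfp981, and that at Gm46629 overlaps the coding gene Rbfa.

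In the class at 80% or more, the highest retained shares were at Gm45973 (80.5%), Gm46386 (79.98%), Gm6809 (78.0%), Gm9689 (77.3%) and Vmn2r-ps17 (75.9%). Gm46386 was the island of this class that was not called, at 83.6% and 80.9% in controls against 58.9% and 72.6% in knockouts over 14 CpGs (adjusted p = 0.0556 by limma). Lowest, after Ppp4r1l-ps, were Gm46629 (54.8%), Gm7775 (55.2%), Rps12-ps9 (57.0%) and Gm9711 (58.1%). The 32 calls rest on the shared variance as well: with each island's own spread, limma called 0 lower, and without knockout replicate 1, 15 were called lower.

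Between the extremes, 25 islands had 20% to under 80% in the controls. They averaged 43.0% and 45.5% in the controls against 32.5% and 32.0% in the knockouts. Of these, 7 were called lower, 0 higher, and 19 had both knockouts below both controls. The 3 with most CpGs lie within 1 Mb on chromosome 8, at Gm10060, 6820431F20Rik and 2610005L07Rik, and none of the 3 was called. Gm10060 (chr8:19784424-19785417) had 28.0% and 31.4% in controls against 21.8% and 18.6% in knockouts over 74 CpGs (adjusted p = 0.271 by limma). Cdv3-ps (chr14:43121868-43122608) fell from 61.3% and 71.4% to 41.4% and 42.0%, while the island of Cdv3 stayed between 0.93% and 1.73%. Oaz1-ps (chr17:17345716-17346301), a copy of the antizyme gene that limits polyamine synthesis, fell from 53.5% and 62.1% to 21.2% and 27.3%, the lowest retained share of this class at 41.9%. Its parent's island stayed between 0.91% and 1.28%. LOC108167983 (chr12:18162662-18163436) fell from 76.6% and 77.9% to 53.6% and 55.9%.

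Islands at the limits of the choice are given as a description only. The islands just inside 1000 bp were at Gm7850 (971 bp away; 2.04% and 2.89% in controls, 10.3% and 3.90% in knockouts) and Gm20950 (981 bp; 58.0% and 48.8% against 35.8% and 34.9%). Just outside were those at Gm17954 (1002 bp; means of 1.03% and 1.02%) and Gm4118 (1022 bp; 1.02% and 1.47%). With 10 and 11 measured CpGs, Vmn2r-ps108 went from 3.22% to 1.31% and Gm3715 from 1.02% to 0.77%. With 9 each, Vmn2r-ps109 and Gm31544 were left out, at 0.88% and 1.61% in controls against 1.22% and 0.84% in knockouts.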

How the data were processed

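The deposited table gives methylation in percent per cytosine and sample, as the authors' share of methylated reads. The build is mm10 per the submitters' processing notes. Aligner and caller were not given in the sources used here. A minimum of 10 reads is stated in the table's title. Read depth is unknown, so every value had the same weight. The 22379309 autosomal cytosines with a value in all 4 samples were used. An island's level was the mean over its cytosines. Promoter windows fitted the table's positions, with 390500 of their 395568 CpGs (98.7%) listed.

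The test of each island used limma 3.58.1 in R 4.3.3 (trended and robust prior) on log2((m + 0.01)/(1 - m + 0.01)) where m is the island's level as a fraction, without replicate block, and p-values were adjusted by Benjamini-Hochberg over all 16151 islands, X included. The prior had 6.76 degrees of freedom (median), against 2 from the samples. Sets were compared by 1 mean per sample in exact permutation tests (two-sided), which cannot give a p below 0.333. The test was checked on simulated data. Tables were handled in data.table (version 1.17.8) and pandas 2.3.3, with SciPy 1.17.1, NumPy 2.4.6 and Matplotlib 3.10.9 under Python 3.11.15. Of the annotated genes, 360 on other scaffolds were left out.

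The islands and lists were chosen with earlier results of these data known. Named islands are the 10 largest gains and losses called, the 5 highest and lowest retained shares, the 5 with most CpGs in the lower classes, the 8 paired copies with most CpGs, and those at the limits. Of these, 1 island is not reported here. Alternatives changed the scale, offset, variance, scaling, minimum difference, samples, CpG minimum, distance, cytosines, density and class limits. Those named as added were chosen after the data were seen.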

Additional observations from a re-analysis of the deposited data

Results flagged for a closer look

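Islands at pseudogenes on the X chromosome are outside the autosomal set and were looked at separately. The island at Rps2-ps13 had 14.1% and 19.6% in controls and 30.9% and 21.2% in knockouts over 28 CpGs, a difference of 9.15 points (adjusted p = 0.371 by limma). The island at Gm14612 had 5.96% and 4.51% against 19.4% and 7.35% over 18 CpGs, a difference of 8.12 points (adjusted p = 0.265 by limma). Both stand here because both knockouts lay above both controls in data outside the comparisons. Neither passed the test, and in each the value of knockout replicate 1 was the higher. The other X islands with at least 10 measured CpGs were at Smt3h2-ps (-0.446 points), B630019K06Rik (0.017 points) and Zfp36l1-ps (0.53 points). In these the knockouts did not both lie above both controls. X islands with fewer measured CpGs were not tested.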

How the results depend on the processing

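With each island's own spread, 0 islands of the set were called lower and 0 higher. Within 5000 bp of a pseudogene, 61 were called lower, and without a minimum difference 23 were called higher. With runs of 40 CpGs, 2 were called lower and 0 higher. Leaving out each replicate gave 15 to 30 lower and 2 to 11 higher, with the variance of the group left with 1 sample taken from the other group. The replicate numbers pair no samples by label, and the deviations of like-numbered samples correlated at 0.134 over the set and 0.0723 over all autosomal islands, in 2 pairs. With the number as a replicate block, 37 were called lower and 18 higher. The mean difference of -0.42 points ran from -1.19 to 0.344 over left-out replicates, and was 0.0404 with at least 20 CpGs and 0.0924 with runs of 40. The retained share of the class at 80% or more was 66.5% with at least 20 CpGs, 66.1% for islands overlapping the pseudogene, 69.1% within 5000 bp, 69.95% without a coding gene, 61.0% with runs of 40 CpGs (1 island), 66.2% with each sample on its own cytosines and 68.0% from a control level of 70%. Left-out replicates gave 67.2% to 67.7%. Its gap to other islands moved by -0.24 points for overlapping islands and -3.32 with runs of 40, and by 0.788 to 1.91 over left-out replicates. The gap of islands under 20% without a coding gene widened by 1.70 to 3.73 points and that of pseudogenes to parents by 3.20 to 6.66. Where a value changed, the cause was not tested. Without read depth, counting error could not be separated from the spread between samples.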
